A study of Rattus norvegicus with 21 samples.

Results

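The comparison described here sets left ventricles of 24-month-old male rats treated with relaxin (RLX) against left ventricles of 9-month-old male controls, and asks what still differed from young hearts after RLX. Its 6 libraries were taken by their labels, 3 on each side, from the 21 libraries of the series. All rats were F-344 Brown/Norway rats, and each library came from the total RNA of the left ventricle of 1 animal. The 24-month RLX males are rats 2, 3 and 7, which received RLX at 400 ug/kg/day for 14 days from subcutaneous osmotic mini pumps. The 9-month control males are rats 2, 3 and 4, which received sodium acetate, the vehicle, by the same route. Age and RLX therefore differ together between these groups and cannot be told apart within the comparison. The 24-month control males (rats 8, 11 and 12, vehicle) are given as levels beside it, without a test, since other comparisons share them. The 24-month RLX females and the 9-month control females, 4 rats each, serve to test whether the difference depends on sex. Values per library are given in the order of the rat numbers above.

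Relaxin is a peptide hormone of the insulin family that acts mainly through the receptor RXFP1. It is known for its part in remodelling the reproductive tract in pregnancy, for widening blood vessels and for limiting collagen build-up in the heart. The inflammatory genes described below act in sequence in injured tissue. Danger signals switch on NF-kappaB, a transcription factor, which induces the cytokines of the interleukin-1 family, interleukin-6 and chemokines that draw in white blood cells. Immediate-early genes, such as the Egr and Fos families, are transcribed within minutes of a stimulus without new protein synthesis. Fibroblasts make the collagens that stiffen an aging ventricle.

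The total count per library was 11997512 to 15209797 in the 24-month RLX males and 12278848 to 12758653 in the 9-month controls, over 26597 genes. Genes of the mitochondrial genome took 35.9% to 49.6% of the counts with RLX and 39.4% to 41.6% in 9-month controls. Levels below are CPM, counts scaled to the effective size of each library, which do not compare genes of different length. The 7 markers of heart muscle cells were high in every library, and their summed level of 25295 to 27671 CPM with RLX lay within the 23762 to 33561 CPM of the 9-month controls. Markers of blood set 1 library apart, since they summed to 333 CPM in RLX rat 2 but to 8.52 and 15.01 CPM in RLX rats 3 and 7, against 56.5 to 128 CPM in the 9-month controls. In tissue RNA, fewer cells of a type and less RNA per cell cannot be told apart.

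The differences between the groups were many at an unadjusted threshold, but no gene met the full definition of a differentially expressed gene (DEG). A DEG had to differ by more than 1.5-fold, to reach a mean of 1 RPKM (reads scaled to library size and gene length) in 1 of the groups, and to keep the false discovery rate (FDR) at or under 0.05. Of 12285 genes tested with edgeR's quasi-likelihood test, 0 were DEGs in either direction, and the smallest adjusted p was 0.0905, with 19 genes at or under 0.1. At an unadjusted p under 0.05 there were 868 higher genes (7.07%) and 1102 lower genes (8.97%), 16.0% in all. DESeq2 called 115 higher DEGs (0.936%) and 202 lower DEGs (1.64%) from the same counts, 2.58% in all. The exact test of edgeR called 87 higher (0.708%) and 198 lower ones (1.61%), 2.32% in all. With voom there were 51 higher (0.415%) and 120 lower ones (0.977%), 1.39% in all. These 3 tools shared 49 higher genes (0.399%) and 101 lower genes (0.822%), 1.22% in all. Every RLX library lay above every 9-month library in CPM for 11.4% of the genes tested and below for 11.2%, 22.6% in all. With all 9 male libraries in the quasi-likelihood fit, 4 genes were higher DEGs (0.0321%). An exact permutation test of 3 rats against 3 cannot give a 2-sided p below 0.1. The unadjusted counts were 517 higher and 596 lower without RLX rat 3, and 575 and 781 without 9-month rat 4.

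The difference followed gene length. The median log2 fold change was -0.27 in the shortest of 5 equal bins of genes by summed exon length (median 1068 bases) and 0.19 in the longest (median 5379 bases). In females the same bins had medians of 0.08 and -0.06, the opposite order. Across 12203 genes, which are not independent replicates, Spearman's rho between fold change and length was 0.36. Each library was also set against the mean of all 9 male libraries, 24-month controls included. On that scale, log2 CPM of the longest minus the shortest bin was 0.28, 0.33 and 0.33 in RLX rats 2, 3 and 7. It was -0.0031, -0.40 and 0.00030 in 9-month rats 2, 3 and 4. The 3 RLX hearts were alike in this, and 9-month rat 3 stood apart from the other young hearts. The 24-month controls had -0.0057, -0.13 and -0.44 in rats 8, 11 and 12, so 24-month rat 12 lay near 9-month rat 3. Of the genes that the 3 tools called, the higher ones had a median exon length of 4527 bases and the lower ones of 992 bases. With a length trend removed from each library, DESeq2 called 52 higher DEGs (0.423%) and 63 lower DEGs (0.513%), 0.936% in all, and the quasi-likelihood test 1 higher (0.00814%) and 0 lower. The part of this trend in the results below was not tested, and values with it removed stand beside some of the lists. A list given without one may also have moved, as the median of the study's chemokines and receptors did, from -0.51 to -0.36.

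**Figure D1:**
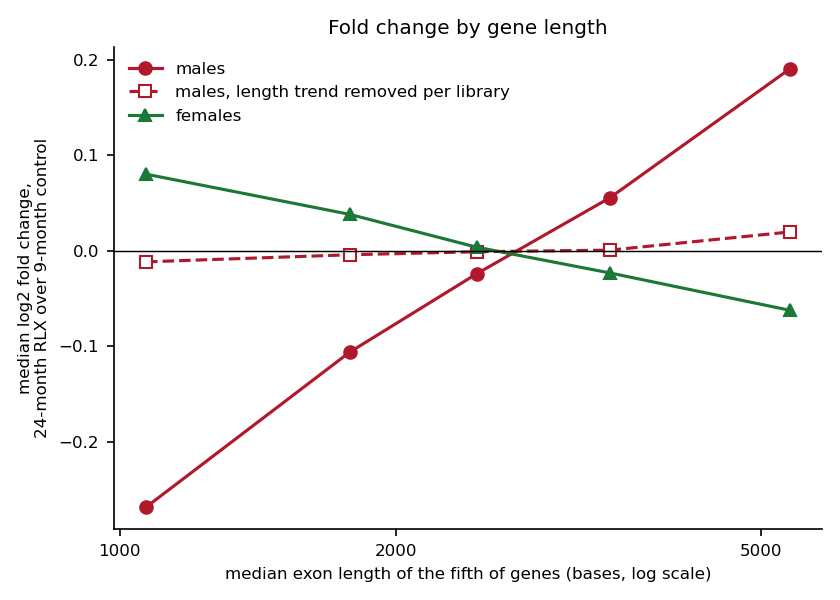
Median log2 fold change of 24-month RLX over 9-month control rats (vertical axis) in 5 equal bins of genes by exon length (horizontal axis, bases, log scale), for males, for males after a length trend was removed from each library, and for females. The male line runs between -0.27 and 0.19, and the female line slopes the other way between 0.08 and -0.06.

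The higher genes with the smallest p included muscle and receptor genes whose levels were between 0.87 and 2.60 log2 units above those of young hearts. Xirp2, an actin-binding protein of the intercalated discs that join heart muscle cells, had 334, 344 and 352 CPM in RLX hearts, against 160.0, 125 and 158 CPM in 9-month hearts. All RLX libraries lay well above all young ones, and the 24-month controls, at 342, 268 and 386 CPM, lay with the RLX libraries. The log2 fold change of RLX over 9-month hearts was 1.22 ± 0.17 (SE, n = 3 each, adjusted p = 0.0905), and 0.88 with the length trend removed.

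Ptgfr, the receptor of prostaglandin F and a driver of contraction in smooth muscle, had 70.8, 67.9 and 63.9 CPM in RLX hearts, against 30.7, 16.5 and 24.96 CPM in 9-month hearts. It was higher by 1.49 ± 0.22 on the log2 scale (adjusted p = 0.0905), and the 24-month controls lay beside the RLX hearts at 67.2, 63.9 and 59.1 CPM. Tigit, an inhibitory receptor on T cells and natural killer cells, had 3.49, 4.64 and 7.65 CPM in RLX hearts, against 0.508, 1.38 and 0.743 CPM in 9-month hearts. With a log2 fold change of 2.60 ± 0.43 it differed most among the 10 higher genes named, although its level was low. T cell markers summed to 88.7 to 95.6 CPM in RLX hearts, against 79.4 to 132 CPM in 9-month hearts. Of 10, 2 were under the unadjusted threshold, both lower (8.97% over all genes in that direction). That count was 0 without 9-month rat 3, 1 without RLX rat 2 and 4 without 9-month rat 4. Gcnt1, an enzyme that branches the sugar chains of glycoproteins, had 40.7, 34.3 and 29.2 CPM in RLX hearts, against 14.7, 14.96 and 15.4 CPM in 9-month hearts (log2 fold change 1.21 ± 0.18). The 2 groups did not overlap for any of these genes, which was a condition for naming them. Ivns1abp, which encodes an actin-binding kelch protein, is listed at 2 loci on chromosome 13 that may share reads, with log2 fold changes of 1.12 and 1.00, so the split between them is uncertain. Efcab6, a calcium-binding protein, Dmxl1, which takes part in assembling the vacuolar proton pump, and Slfn3, a member of the Schlafen family, stood at 1.54, 0.87 and 1.06 on the same scale (adjusted p = 0.0905, 0.111 and 0.115). These genes lie on different chromosomes: Xirp2 on chromosome 3, Ptgfr on 2, Tigit on 11, Gcnt1 on 1, Efcab6 on 7, Dmxl1 on 18 and Slfn3 on 10.

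**Figure D2:**
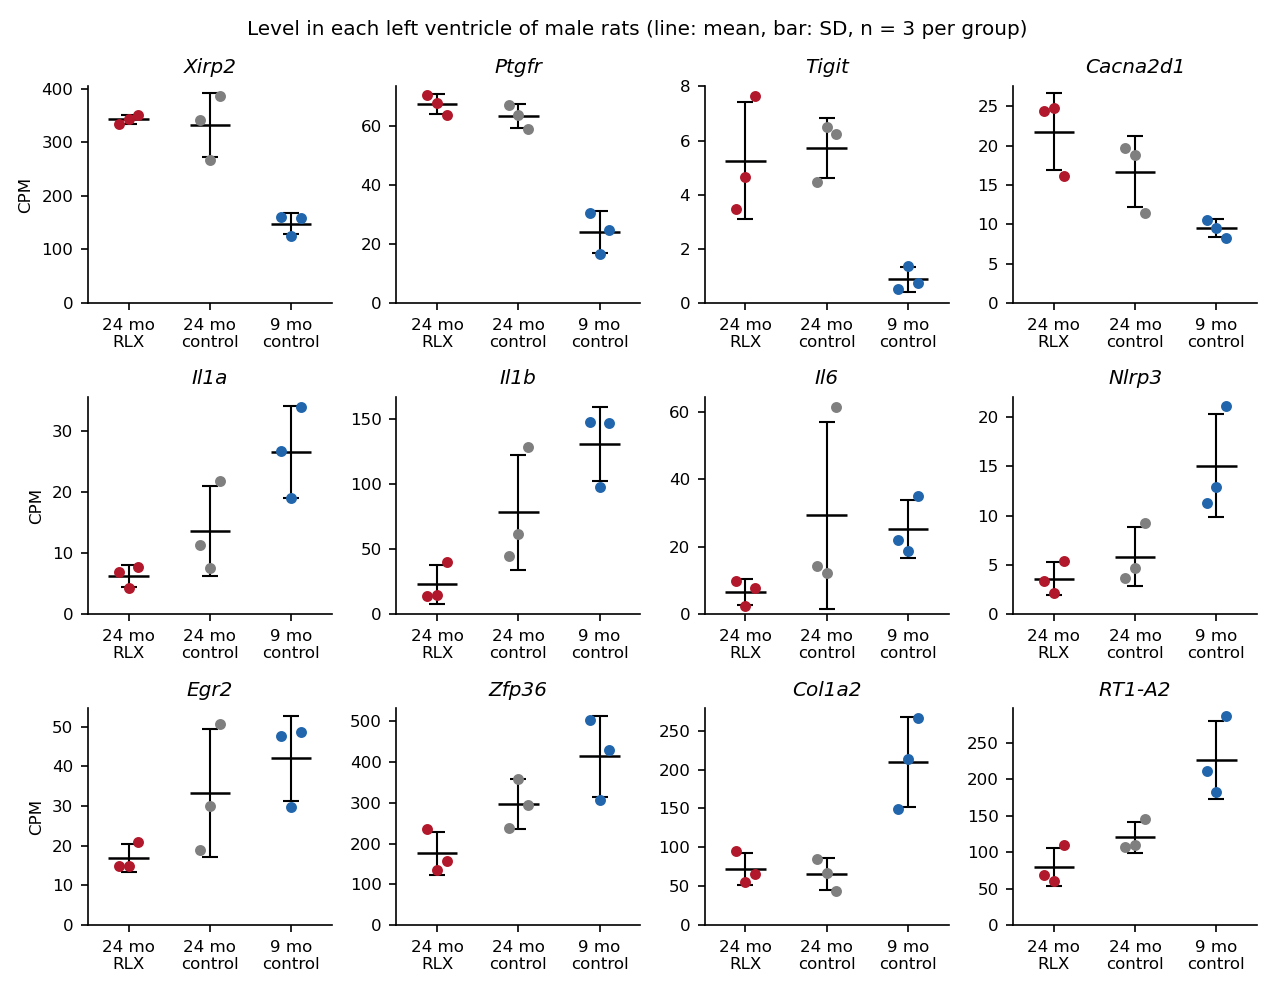
CPM (vertical axes, from 0) of 12 genes in each left ventricle of male rats, in 24-month RLX, 24-month control and 9-month control groups; points are rats, lines are means and bars are SD (n = 3). RLX hearts lie above 9-month hearts for Xirp2, Ptgfr, Tigit and Cacna2d1 and below them for the other 8 genes, with no overlap between those groups in any panel. All but Il1b, Il6 and Zfp36 were picked among genes without overlap.

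Genes of calcium handling leaned to the higher side. Of the 14 members tested, 7 had an unadjusted p under 0.05 in the higher direction (7.07% over all genes) and 0 in the lower, and the list's median log2 fold change was 0.43, against -0.03 over all genes tested. Cacna2d1 (chromosome 4), an auxiliary subunit of the voltage-gated calcium channel, had 24.4, 24.8 and 16.2 CPM in RLX hearts, against 10.6, 9.60 and 8.32 CPM in 9-month hearts. Slc8a1, the sodium-calcium exchanger of the cell surface, had 65.9, 61.1 and 56.3 CPM in RLX hearts, against 41.8, 22.4 and 29.3 CPM in 9-month hearts. Ryr2, the calcium release channel of the sarcoplasmic reticulum, had 586, 546 and 569 CPM in RLX hearts, against 425, 257 and 289 CPM in 9-month hearts. The groups were apart for all 3 genes, for Cacna2d1 by its choice, and 9-month rat 2 was the young heart nearest to the RLX hearts in each. Their log2 fold changes were 1.20 ± 0.22, 0.98 ± 0.22 and 0.81 ± 0.21 (adjusted p = 0.111, 0.14 and 0.144), and DESeq2 called all 3 (adjusted p = 0.00136, 0.0108 and 0.0205). Casq2, which stores calcium in the sarcoplasmic reticulum, followed at 0.66 ± 0.19. Atp2a2, the pump that refills this store, and its inhibitor Pln had log2 fold changes of 0.28 and -0.08 and missed the unadjusted threshold. These are long transcripts (median exon length 4531 bases), and with the length trend removed the list's median was 0.36 and 4 members had an unadjusted p under 0.05.

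The cytokine genes Il1a, Il1b and Il6 were lower in every RLX heart than in any young heart, a separation by which Il1a was chosen. Il1a (chromosome 3), the cell-associated form of interleukin-1, had 6.81, 4.22 and 7.65 CPM in RLX hearts, against 26.8, 19.02 and 34.0 CPM in 9-month hearts. Il1b, its secreted relative, had 14.0, 14.3 and 40.1 CPM in RLX hearts, against 148, 98.0 and 147 CPM in 9-month hearts. Il6, the cytokine that drives the acute phase response, had 9.70, 2.36 and 7.65 CPM in RLX hearts, against 21.9, 18.7 and 34.9 CPM in 9-month hearts. RLX rat 7 was the highest of its group for Il1a and Il1b. The log2 fold changes were -2.08 ± 0.28, -2.51 ± 0.41 and -1.93 ± 0.44 (adjusted p = 0.0905, 0.109 and 0.142), and DESeq2 called each (adjusted p = 1.93e-08, 1.37e-08 and 0.000513). The 24-month controls had 11.4, 7.60 and 21.8 CPM of Il1a, 1 of them within the RLX range, and 44.5, 61.5 and 128 CPM of Il1b, all above it. For Il6 they ran from 12.1 to 61.4 CPM. Other members of the interleukin-1 family did not separate the groups: Il1rn, the natural antagonist of its receptor, Il18 and Il33 had log2 fold changes of -0.03, -0.20 and -0.30, with overlap.

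Nlrp3 (chromosome 10), the sensor of the inflammasome that releases mature interleukin-1 beta, had 3.32, 2.11 and 5.36 CPM in RLX hearts, against 11.3, 12.9 and 21.1 CPM in 9-month hearts. On the log2 scale the difference was -2.04 ± 0.35 (adjusted p = 0.0927). Sdc4 (chromosome 3), a heparan sulfate proteoglycan of the cell surface, had 41.1, 35.0 and 54.5 CPM in RLX hearts, against 120.0, 89.3 and 138 CPM in 9-month hearts, or -1.40 ± 0.22 on the log2 scale (adjusted p = 0.0905). Neither gene overlapped between these groups, which was a condition for naming both. Of 32 cytokines and regulators driven by NF-kappaB, 12 had an unadjusted p under 0.05 in the lower direction (8.97% over all genes) and 0 in the higher. The groups did not overlap for 8, all in the lower direction (11.2% over all genes), and the list's median log2 fold change was -0.76. DESeq2 called 7 of the 32, all lower (1.64% over all genes). Nfkbiz, a nuclear regulator of NF-kappaB, had a log2 fold change of -0.83 ± 0.22, and the chemokines Ccl7 and Cxcl2 had -1.21 ± 0.36 and -1.88 ± 0.55. The count of 12 rested on single libraries, since it was 22 without RLX rat 7 and 8 without RLX rat 3. In RLX rat 7 the list stood near the young level, with a median of -0.01 relative to the 9-month mean on the log2 CPM scale, against -1.25 and -1.03 in RLX rats 2 and 3. With the length trend removed the median was -0.65. Of 16 genes of interleukin-6 family signalling, 8 were under the unadjusted threshold in the lower direction and 2 in the higher. The median was -0.68 (-0.58 with the length trend removed). This list shares Il6 and Bcl3 with the NF-kappaB list and Junb with the immediate-early genes, so the counts of these lists are not independent. The lower count was 4 without RLX rat 7 and 5 without RLX rat 3, 9-month rat 2 or 9-month rat 4. Il11ra1, the interleukin-11 receptor, and Socs3, a feedback inhibitor of the pathway, had log2 fold changes of -0.73 ± 0.22 and -1.80 ± 0.52, and Lifr, the receptor of leukemia inhibitory factor, had 0.50 ± 0.19. Il6st, the receptor chain shared by the family, lay on the higher side too, with 169, 172 and 214 CPM in RLX hearts, against 141, 118 and 131 CPM in 9-month hearts (log2 fold change 0.51 ± 0.17, adjusted p = 0.201).

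All 25 immediate-early genes tested had a negative log2 fold change. Of these, 18 had an unadjusted p under 0.05, in a direction that held 8.97% of all genes, and the median was -1.07 (-1.01 with the length trend removed). DESeq2 called 9 of the 25 lower (1.64% over all genes). Egr2 (chromosome 20), a zinc finger transcription factor, had 14.8, 14.9 and 21.03 CPM in RLX hearts, against 47.7, 29.7 and 48.8 CPM in 9-month hearts. Zfp36, which speeds the decay of cytokine messages, had 235, 135 and 158 CPM in RLX hearts, against 504, 308 and 430.5 CPM in 9-month hearts. Nr4a1, an orphan nuclear receptor, had 83.6, 49.2 and 47.7 CPM in RLX hearts, against 178, 89.4 and 156 CPM in 9-month hearts. For each of these genes 9-month rat 3 was the lowest young heart and still lay above every RLX heart, for Egr2 by its choice. Their log2 fold changes were -1.30 ± 0.24, -1.23 ± 0.25 and -1.23 ± 0.29 (adjusted p = 0.105, 0.13 and 0.142), and Egr1 had -0.79 ± 0.20. The groups did not overlap for 7 of the 25 genes, against 11.2% of all genes in that direction. Where they overlapped, 9-month rat 3 could lie among the RLX hearts, as for Junb, which had 41.8, 13.2 and 37.3 CPM in RLX hearts, against 162, 40.1 and 178 CPM in 9-month hearts. Left out in turn, the libraries gave between 13 and 19 genes at an unadjusted p under 0.05. The 24-month controls lay nearer to the young hearts, with a list median of -0.24 relative to 9-month controls on the log2 CPM scale.

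The promoters of 3 immediate-early genes, of Il6 and of Sdc4 are shown because these genes were low in every RLX heart and a motif known for their group stands in each window. The immediate-early promoters carry the CArG box, the site of serum response factor, and the others carry the NF-kappaB motif. Each window runs from 250 bases before to 50 bases after the annotated start, as RefSeq gives it on the rat build GRCr8, and is written 5′ to 3′ on the strand of the gene with the motif in capitals. Egr1 is at chr18:26736828-26737127 on the plus strand. Egr2 is at chr20:21054392-21054691, Zfp36 at chr1:92799059-92799358, Il6 at chr4:5894526-5894825 and Sdc4 at chr3:173592874-173593173, all on the minus strand.
Egr1: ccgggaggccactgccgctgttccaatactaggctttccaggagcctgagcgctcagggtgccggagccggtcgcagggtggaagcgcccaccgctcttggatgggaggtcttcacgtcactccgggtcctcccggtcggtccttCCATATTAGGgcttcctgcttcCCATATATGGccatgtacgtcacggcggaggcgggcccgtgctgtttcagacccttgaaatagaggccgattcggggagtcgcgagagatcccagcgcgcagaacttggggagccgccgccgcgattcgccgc
Egr2: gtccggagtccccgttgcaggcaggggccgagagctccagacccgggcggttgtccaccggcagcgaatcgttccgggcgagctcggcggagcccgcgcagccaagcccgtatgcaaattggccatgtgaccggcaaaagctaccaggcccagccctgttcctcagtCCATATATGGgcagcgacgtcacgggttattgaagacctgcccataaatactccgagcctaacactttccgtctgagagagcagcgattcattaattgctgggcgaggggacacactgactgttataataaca
Zfp36: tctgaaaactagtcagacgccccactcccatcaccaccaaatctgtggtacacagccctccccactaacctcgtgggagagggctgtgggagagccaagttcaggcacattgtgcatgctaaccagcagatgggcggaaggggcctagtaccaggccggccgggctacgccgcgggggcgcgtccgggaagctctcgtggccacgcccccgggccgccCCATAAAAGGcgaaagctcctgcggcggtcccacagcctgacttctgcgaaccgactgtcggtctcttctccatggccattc
Il6: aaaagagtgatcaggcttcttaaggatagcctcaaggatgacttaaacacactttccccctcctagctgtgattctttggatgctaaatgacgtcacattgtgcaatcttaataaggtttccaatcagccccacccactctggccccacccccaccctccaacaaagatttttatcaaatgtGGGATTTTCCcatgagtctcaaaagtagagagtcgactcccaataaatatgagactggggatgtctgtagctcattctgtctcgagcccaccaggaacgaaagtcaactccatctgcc
Sdc4: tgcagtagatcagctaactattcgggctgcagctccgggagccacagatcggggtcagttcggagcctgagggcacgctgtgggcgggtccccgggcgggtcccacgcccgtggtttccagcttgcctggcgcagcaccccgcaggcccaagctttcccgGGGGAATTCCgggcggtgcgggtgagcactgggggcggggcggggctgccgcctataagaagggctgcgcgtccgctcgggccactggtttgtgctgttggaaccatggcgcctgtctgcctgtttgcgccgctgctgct

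Both motifs were searched on both strands, and none of these windows held both. The Egr1 window holds CCATATTAGG 105 bases and CCATATATGG 83 bases before the start, and the Egr2 window holds CCATATATGG at the same distance of 83 bases. Zfp36 has CCATAAAAGG 32 bases before its start. The CArG box was found in 5 of 16 immediate-early promoters that could be matched (31.2%), against 1.64% of all 33469 promoters. The NF-kappaB motif was found in 14 of 25 matched promoters of the NF-kappaB list (56.0%), against 4.18% of all promoters. In Il6 it reads GGGATTTTCC, 68 bases before the start, and in Sdc4, which is not on that list, GGGGAATTCC, 90 bases before the start. The lists were not drawn independently of these factors, so the shares describe the sequences and carry no test. A match is not a shown binding site.

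The fibrillar collagen genes Col1a1, Col1a2 and Col3a1 lay below the young level in RLX hearts. Col1a2 (chromosome 4), a chain of the main fibrillar collagen, had 95.3, 55.2 and 65.6 CPM in RLX hearts, against 149, 214 and 266 CPM in 9-month hearts. Col1a1, the other chain of that collagen, had 56.5, 26.2 and 49.8 CPM in RLX hearts, against 94.3, 141 and 159 CPM in 9-month hearts. Col3a1, another fibrillar collagen, had 366, 241 and 328 CPM in RLX hearts, against 472, 1007 and 795 CPM in 9-month hearts. RLX rat 2 was the highest of its group for each gene, and 9-month rat 2 was the lowest of its group. The groups still did not overlap, which for Col1a2 was a condition for naming it. The log2 fold changes were -1.54 ± 0.26, -1.57 ± 0.29 and -1.28 ± 0.28 (adjusted p = 0.0905, 0.111 and 0.14), and DESeq2 called each (adjusted p = 1.57e-05, 6.15e-05 and 0.00148). The 24-month controls had 84.8, 67.4 and 44.0 CPM of Col1a2. Of 29 genes of collagens and fibrosis, 11 had an unadjusted p under 0.05 in the lower direction (8.97% over all genes) and 0 in the higher. The median was -0.55 (-0.68 with the length trend removed). Relative to 9-month controls on the log2 CPM scale the list's median was -0.78 in the 24-month controls. Mfap2 (chromosome 5), a component of elastic microfibrils, had 3.58, 2.19 and 2.77 CPM in RLX hearts, against 7.11, 8.47 and 8.91 CPM in 9-month hearts (log2 fold change -1.51 ± 0.27, adjusted p = 0.0927). Serpinh1, the collagen chaperone, and Sparc, a collagen-binding matrix protein, had log2 fold changes of -0.91 ± 0.23 and -0.86 ± 0.20. Fibroblast markers differed in part with these genes. Their summed level was 4305 to 5814 CPM in RLX hearts, against 5623 to 7293 CPM in 9-month hearts, and 3 of the 8, which include Col1a1 and Col1a2, had an unadjusted p under 0.05. The part of fibroblast number was not tested.

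The class I genes RT1-A1, RT1-A2 and RT1-CE5 were lower in every RLX heart than in any young heart, a separation by which they were chosen. RT1-A2, a classical class I molecule of the rat, had 69.1, 60.7 and 109 CPM in RLX hearts, against 211, 182 and 286 CPM in 9-month hearts. RT1-A1 had 50.6, 60.2 and 62.4 CPM in RLX hearts, against 104, 162 and 128 CPM in 9-month hearts. RT1-CE5 had 44.6, 45.3 and 48.6 CPM in RLX hearts, against 80.0, 119 and 94.3 CPM in 9-month hearts. These neighbours on chromosome 20 are closely related copies that may share reads, so the 3 values are not independent. Their log2 fold changes were -1.50 ± 0.25, -1.18 ± 0.20 and -1.08 ± 0.19 (adjusted p = 0.0905 each). Among 17 genes of class I and class II antigen presentation, which do not include RT1-CE5, 8 had an unadjusted p under 0.05 in the lower direction (8.97% over all genes) and 0 in the higher, with a median of -0.51, and RT1-Db1, a class II chain, had -0.76 ± 0.21. The count was 4 both without RLX rat 3 and with the length trend removed. Of 33 interferon-induced genes, 6 were under the unadjusted threshold in the lower direction and 0 in the higher, with a median of -0.20, and without RLX rat 3 the count was 3. Ifi27 and Bst2, interferon-induced genes, led that list with log2 fold changes of -0.77 ± 0.17 and -0.76 ± 0.17 (adjusted p = 0.14 each). Id3 (chromosome 5), which blocks DNA binding by basic helix-loop-helix factors, had 17.1, 22.1 and 26.5 CPM in RLX hearts, against 60.7, 44.9 and 78.7 CPM in 9-month hearts (log2 fold change -1.48 ± 0.24, adjusted p = 0.0905).

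The markers of heart failure and atrial fibrillation named by the study were reported on these same samples, so their direction is not independent evidence. Of 20 of these markers, 17 could be tested, and Crp, Ifng and Fgf23 were below the count filter. The 20 leave out Plaur and Tnnt2, also named by the study, which had log2 fold changes of -0.80 ± 0.71 and -0.04 ± 0.21 with overlapping groups. The median of the 17 was -0.44 (-0.23 with the length trend removed). Of them, 6 had an unadjusted p under 0.05, all in the lower direction (8.97% over all genes). They were Il1b and Il6, given above, Tnf, Spp1, Cst3 and Fabp4. Tnf, the tumour necrosis factor, had 9.45, 15.1 and 40.6 CPM in RLX hearts, against 78.8, 47.4 and 99.2 CPM in 9-month hearts (log2 fold change -1.78 ± 0.53). Spp1, osteopontin, had 3.40, 3.71 and 3.80 CPM in RLX hearts, against 4.83, 15.9 and 13.7 CPM in 9-month hearts (log2 fold change -1.65 ± 0.39, adjusted p = 0.14). Neither gene overlapped between the groups. The natriuretic peptides, which the stretched heart releases, did not separate them. Nppb had 273, 318 and 285 CPM in RLX hearts, against 414, 280.3 and 448 CPM in 9-month hearts, with the 24-month controls above both at 507, 531 and 596 CPM. Nppa had 290.3, 381 and 269.9 CPM in RLX hearts, against 139.7, 143 and 657 CPM in 9-month hearts, where 9-month rat 4 alone was high. The summed atrial markers, Nppa among them, were 890.3 CPM in that library and 201 to 226 CPM in the other young hearts.

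All 13 chemokines and chemokine receptors that the study names could be tested. An unadjusted p under 0.05 was found for 4 in the lower direction (8.97% over all genes) and 1 in the higher (7.07%). Ccl21, which guides lymphocytes to lymph vessels, had 47.3, 28.9 and 37.1 CPM in RLX hearts, against 67.6, 127 and 174 CPM in 9-month hearts. Ccl2, which draws monocytes, had 77.9, 153 and 246 CPM in RLX hearts, against 375, 331 and 398 CPM in 9-month hearts. The log2 fold changes were -1.70 ± 0.32 and -1.20 ± 0.34 (adjusted p = 0.12 and 0.161), with no overlap. Ccl19 and Ccl1, at low levels, had -1.91 ± 0.45 and -2.15 ± 0.53, and Ccl20 had 1.15 ± 0.43 in the other direction. The other 8 did not pass the unadjusted threshold, Ccl3 at -1.10 ± 0.64 among them, and the median of all 13 was -0.51, or -0.10 without 9-month rat 3. Ccl12, singled out after its values were seen, had 0.170, 1.35 and 1.81 CPM in RLX hearts, against 25.2, 13.1 and 7.80 CPM in 9-month hearts. The 24-month controls lay above every RLX heart, at 4.87, 8.65 and 5.56 CPM.

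Genes of the ribosome and the respiratory chain, whose transcripts are short, lay on the lower side. All 51 cytosolic ribosomal protein genes tested had a negative log2 fold change, and the median was -0.45. An unadjusted p under 0.05 was found for 26, in a direction that held 8.97% of all genes. Fau, which encodes a ribosomal protein fused to a ubiquitin-like part, had 256, 216 and 296 CPM in RLX hearts, against 429, 495 and 433 CPM in 9-month hearts. Rps15, a component of the small subunit, had 186, 125 and 255 CPM in RLX hearts, against 413, 352 and 415 CPM in 9-month hearts. The groups were apart, and the 24-month controls lay above every RLX heart, at 396, 434 and 580.5 CPM of Fau. The log2 fold changes were -0.82 ± 0.18 and -1.06 ± 0.24 (adjusted p = 0.14 each), and Rpl15 and Rps21 had -0.75 ± 0.17 and -0.81 ± 0.18. The members are short (median exon length 728 bases). With the length trend removed the list's median was -0.12 and 8 members had an unadjusted p under 0.05. With the trend kept, the count of 26 became 15 without RLX rat 3 and 16 without RLX rat 2. Of 33 nuclear genes of the respiratory chain, 6 were under the unadjusted threshold in the lower direction and 0 in the higher, with a median of -0.21 that turned to 0.04, and a count of 0, with the length trend removed. With the trend kept, the count of 6 became 1 without RLX rat 3, 2 without RLX rat 2 and 10 without 9-month rat 4. Cox6a2 and Cox8b, muscle subunits of cytochrome c oxidase, had log2 fold changes of -0.70 ± 0.22 and -0.63 ± 0.20 (adjusted p = 0.184 each).

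**Figure D3:**
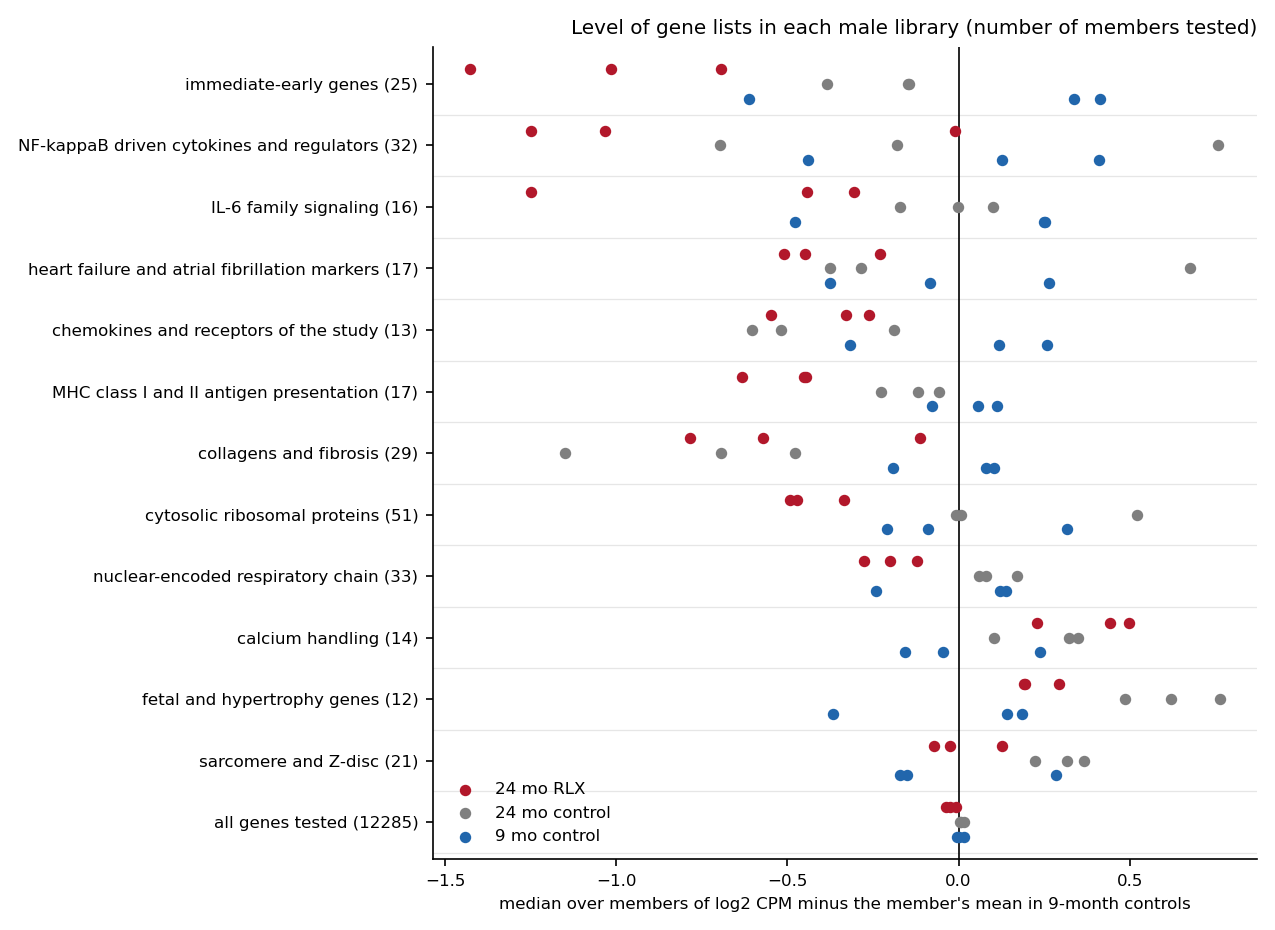
Median over the tested members of each gene list (rows) of log2 CPM minus the member's mean in 9-month controls (horizontal axis), with 1 point per male library, in 24-month RLX, 24-month control and 9-month control groups from top to bottom of a row. The RLX libraries lie below every 9-month library for immediate-early genes, antigen presentation and ribosomal proteins, and RLX rat 7 lies at -0.01 for the NF-kappaB list.

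Of further lists, genes of the fetal and hypertrophy program had 3 of 12 members under the unadjusted threshold, all higher (7.07% over all genes): Xirp2, Enah and Fhl1. Enah, an actin regulator, had 65.4, 53.8 and 67.6 CPM in RLX hearts, against 41.2, 24.8 and 42.1 CPM in 9-month hearts, with the 24-month controls above both at 97.3, 77.0 and 108 CPM. Its log2 fold change was 0.79 ± 0.22 (adjusted p = 0.154). Of 21 sarcomere genes, 3 were higher and 1 was lower under that threshold, a share near the 16.0% over all genes, and the higher count was 1 without 9-month rat 3 or 9-month rat 4. Nebl, a nebulin relative of the Z-disc, had the smallest p among them, with 39.4, 30.9 and 25.01 CPM in RLX hearts, against 16.9, 11.0 and 14.4 CPM in 9-month hearts (log2 fold change 1.17 ± 0.23, adjusted p = 0.12). Ttn, the titin spring of the sarcomere, had 86.7, 11.0 and 10.5 CPM in RLX hearts, against 6.61, 5.10 and 5.79 CPM in 9-month hearts. RLX rat 2 stood far above the others, and the log2 fold change of 2.62 ± 0.88 (adjusted p = 0.236) was 0.89 without it. Of 8 genes of nitric oxide and endothelin signalling, 3 were under the threshold in the higher direction and 0 in the lower, and the higher count was 1 without RLX rat 3 and 1 with the length trend removed. They were Prkg1, the kinase that cyclic GMP activates downstream of nitric oxide (log2 fold change 1.31 ± 0.32, adjusted p = 0.142), Gucy1a3, a subunit of the enzyme that makes cyclic GMP (0.61 ± 0.25), and Ednra, an endothelin receptor (0.55 ± 0.23).

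Of 17 heat shock and chaperone genes, 4 were under the unadjusted threshold in the lower direction (8.97% over all genes) and 0 in the higher. Hspa1a, an inducible chaperone with a near-identical copy that may share its reads, had 276, 146 and 169 CPM in RLX hearts, against 700.4, 175 and 1824 CPM in 9-month hearts. Dnajb1, a partner of such chaperones, had 176, 129 and 66.8 CPM in RLX hearts, against 216, 205 and 416 CPM in 9-month hearts. The groups overlapped for Hspa1a and not for Dnajb1, and 9-month rat 4 was the highest for both. Their log2 fold changes were -2.19 ± 0.73 and -1.17 ± 0.38, and Hspb1 and Bag3 had -1.23 ± 0.36 and -0.70 ± 0.27. The count was 2 without RLX rat 7 or 9-month rat 4. Of 18 complement genes, 4 were under the threshold in the lower direction and 1 in the higher. C1qa and C1qc, subunits of the first complement component that also stand among the macrophage markers, had log2 fold changes of -0.61 ± 0.22 and -0.73 ± 0.23. Cfd, complement factor D, which stands among the fat cell markers, and C3ar1, the receptor of C3a, had -0.97 ± 0.27 and -0.88 ± 0.27, and Cd55, an inhibitor of complement at the cell surface, had 0.60 ± 0.18. The receptor of the hormone given was barely detected. Rxfp1 had 0.936, 1.35 and 0.663 CPM in RLX hearts, against 0.678, 0.346 and 1.49 CPM in 9-month hearts, with a fitted log2 difference of 0.18 ± 0.54 whose sign changed when single libraries were left out. Rxfp2, Rxfp3, Rln1, Rln3 and Insl3 were below the count filter.

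Summed markers of macrophages, endothelium and fat cells overlapped between the groups, while those of neutrophils, mast cells, B cells and skeletal muscle were lower in every RLX heart than in any 9-month heart. These are 4 of 16 marker lists. Among single genes tested, 11.2% were lower and 11.4% higher without overlap, so a few such lists are no result by themselves. Macrophage markers summed to 678 to 963 CPM in RLX hearts, against 810 to 1173 CPM in 9-month hearts. Of 11, 2 were under the unadjusted threshold in the lower direction (8.97% over all genes). That count was 4 without RLX rat 2 and 1 without RLX rat 3 or 9-month rat 4. Endothelial markers summed to 375 to 545 CPM in RLX hearts, against 482 to 652 CPM in 9-month hearts. Of 8, 3 were under the unadjusted threshold in the lower direction. Without RLX rat 3 or 9-month rat 2 that count was 1, and the median log2 fold change of -0.28 was -0.03 without RLX rat 3. Fat cell markers summed to 369 to 894 CPM in RLX hearts, against 871 to 1448 CPM in 9-month hearts, of which Fabp4 made up most, and Ucp1 was at 0. Markers of neutrophils, a usual source of interleukin-1, summed to 0.338 to 1.19 CPM in RLX hearts, against 1.47 to 1.71 CPM in 9-month hearts. The 24-month controls had 0.0975 to 0.723 CPM, and Ltf was at 0 in every male library. Of the 9 neutrophil markers, 0 passed the count filter, so this sum lay near the floor. Mast cell markers, which include the proteases Cpa3 and Tpsb2, summed to 10.5 to 16.7 CPM in RLX hearts, against 17.6 to 19.7 CPM in 9-month hearts. The 24-month controls had 13.6 to 13.8 CPM. Of 5 tested, 2 were under the unadjusted threshold in the lower direction. That count was 0 without RLX rat 3 or RLX rat 7 and 1 without 9-month rat 2 or 9-month rat 4. B cell markers summed to 0.928 to 1.51 CPM in RLX hearts, against 1.82 to 1.86 CPM in 9-month hearts. The 24-month controls had 1.05 to 1.46 CPM, and Cd79a, Ms4a1 and Pax5 were at 0 in every male library. Of the 7 B cell markers, 1 passed the count filter, so this sum lay near the floor too. Skeletal muscle markers, among them Acta1 and Ckm, which heart muscle also expresses, summed to 659 to 1106 CPM in RLX hearts, against 1135 to 1865 CPM in 9-month hearts. The 24-month controls lay above every RLX heart, at 1315 to 1440 CPM. The part of these cell types in the results was not tested.

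Female hearts were set side by side in the same way, and an interaction term tested whether the contrast depended on sex. Male and female libraries were loaded for sequencing at different concentrations, so sex and sequencing run cannot be told apart, although each contrast was taken within a sex. Of 13048 genes, 143 had a higher male than female difference (1.10%) and 156 a lower one (1.20%) at an FDR of at most 0.05, 2.29% in all. In 139 of the 143 the male fold change was positive and the female one negative, and in 142 of the 156 it was the reverse. Choosing genes by this difference favours opposite signs. The medians were 0.61 in males and -0.25 in females for the first set, and -0.76 and 0.22 for the other. These counts depended on single libraries. Of males, 1 gene was called without RLX rat 3, 40 without 9-month rat 4, 135 without 9-month rat 2, 506 without 9-month rat 3 and 588 without RLX rat 7. Of females, 3, 16, 48 and 476 were called without RLX rats 4, 2, 1 and 6, and 26, 35 and 71 without 9-month rats 1, 4 and 3. They also carry the length trend, which runs in opposite directions in the sexes. With it removed, 34 genes were called, 24 higher and 10 lower, and 33 of them were among the 299.

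Ptgfr had the smallest p. Its male fold change is given above, and females had 26.0 ± 5.0 CPM with RLX and 38.3 ± 2.6 CPM in 9-month controls (SD, n = 4 each), or -0.56 ± 0.13 on the log2 scale (SE). The male minus female difference was 2.05 ± 0.25 (adjusted p = 0.00444), and Ptgfr passed the threshold under all 20 alternatives run. Ogt, the enzyme that adds N-acetylglucosamine to intracellular proteins, had 61.8, 71.6 and 63.1 CPM in male RLX hearts, against 41.1, 43.6 and 36.4 CPM in male 9-month hearts. In females Ogt had 53.8 ± 9.5 CPM with RLX and 80.2 ± 6.2 CPM in 9-month controls (SD, n = 4 each), so the male minus female difference was 1.28 ± 0.19 (adjusted p = 0.0177). Cyba, a subunit of NADPH oxidases, lay the other way, with 13.6, 7.76 and 12.4 CPM in male RLX hearts, against 26.8, 22.8 and 31.6 CPM in male 9-month hearts. Females had 22.8 ± 2.6 CPM of Cyba with RLX and 18.2 ± 2.7 CPM in 9-month controls, and the difference was -1.59 ± 0.26 (adjusted p = 0.0203). The 2 sexes therefore differed in the sign of the contrast for each of these genes, which were chosen by a test that favours opposite signs. Tmem255b, a membrane protein at a low level, had a difference of -3.28 ± 0.49 (adjusted p = 0.0177).

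Of the 20 genes named for the smallest p in males, 10 differed between the sexes, against 2.29% of all genes in that test. These 20 were chosen on male libraries that the sex test also uses, so the share is not independent evidence. Members of the lists differed too. Col1a2 (-1.65 ± 0.39, adjusted p = 0.0456), RT1-A2 (-1.36 ± 0.26, adjusted p = 0.0276), RT1-A1 (-0.90 ± 0.21, adjusted p = 0.043), RT1-CE5 (-1.03 ± 0.19, adjusted p = 0.024), Id3 (-1.34 ± 0.27, adjusted p = 0.0311) and Bst2 (-0.93 ± 0.18, adjusted p = 0.0279) had a lower male than female difference. Dmxl1 (1.00 ± 0.18, adjusted p = 0.024), Efcab6 (1.65 ± 0.41, adjusted p = 0.0471), Slfn3 (1.07 ± 0.26, adjusted p = 0.0444), the longer locus of Ivns1abp (0.83 ± 0.19, adjusted p = 0.0405) and Camk2d, a kinase that calcium and calmodulin activate (0.81 ± 0.18, adjusted p = 0.0424), had a higher one. Of 51 ribosomal protein genes, 10 differed, all lower in males (1.20% over all genes). These genes are short (median exon length 728 bases), and the base rate over all genes takes no account of length. In the shortest bin of genes by exon length (median 1068 bases), 100 of 2441 genes were lower in males and 2 were higher. With the length trend removed, 10 genes of any kind were lower in males. The part of length in the ribosomal count was not tested. Acta1, the skeletal actin that the fetal and the stressed heart express, differed through females, which had 275 ± 19.9 CPM with RLX and 72.0 ± 26.1 CPM in 9-month controls (SD, n = 4 each). Males had 138, 98.7 and 169 CPM of Acta1 in RLX hearts, against 155, 104 and 247 CPM in 9-month hearts, and the male minus female difference was -2.25 ± 0.44 (adjusted p = 0.0329). The cytokines Il1a, Il1b and Il6 did not pass this test, at differences of -2.66, -2.77 and -1.95 (adjusted p = 0.194, 0.149 and 0.224).

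**Figure D4:**
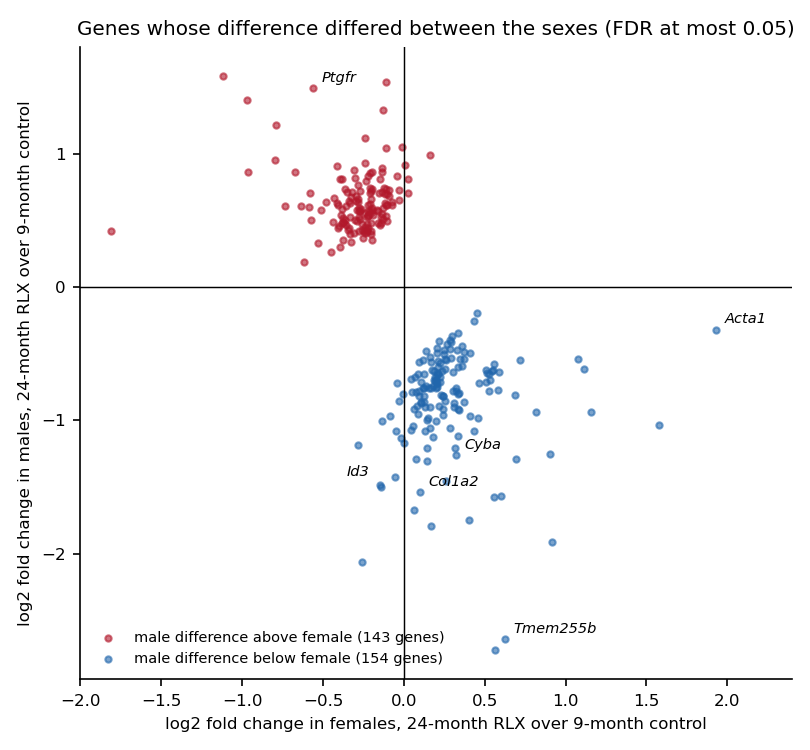
Log2 fold change of 24-month RLX over 9-month controls in males (vertical axis) against that in females (horizontal axis), for the 297 of 299 genes called in the test of the sex difference that both sexes' fits hold. Nearly all points lie in the upper left or the lower right of the plot, where the sexes have opposite signs. Choosing genes by the sex difference favours this.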

How the data were processed

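Left ventricular total RNA was read in paired ends after ribosomal sequences had been removed. Per the paper's methods, the authors used Biomedical Genomics Workbench for mapping (genome build: not given in the sources used here). They deposited total counts of reads per gene and RPKM values, which scale counts by gene length and library total. CPM and TPM columns were also deposited and stayed unused. Libraries held by more than 1 deposited table had identical values.

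Tests used R 4.3.3 and edgeR 4.0.16. Genes were kept by filterByExpr, scaled by TMM and tested in a robust quasi-likelihood fit on the 6 libraries alone, with Benjamini-Hochberg adjustment over all genes tested. Adjusted p-values are from this test unless another tool is named, and an SE is the absolute log2 fold change divided by the square root of F. Printed CPM use TMM factors over all 21 libraries, and log2 CPM a prior count of 2. The sex test was an interaction on 14 libraries. Alternatives were DESeq2 1.42.0, the exact test, voom in limma 3.58.1, RLE factors, no filter, other RPKM limits, a lowess length trend removed per library, all male libraries, the replicate block, and leaving out each library. Exon lengths came from counts and RPKM. The fits were tested on simulated data. Replicates are separate rats. The headers number male and female libraries in separate runs of indices, and nothing marks a batch within a sex.

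The 10 higher and 10 lower genes named first have the smallest p among those past the fold and RPKM limits whose groups do not overlap, with uncharacterized genes skipped. They missed the FDR. Others are up to 4 genes of smallest p in each list described, genes of the study's 2 lists, relaxin receptors, and the 3 smallest p of the sex test in each direction. Atp2a2, Pln, Junb, Ccl12, Il1rn, Il18, Il33, Plaur, Tnnt2, Cd55 and the list members that passed the sex test were chosen after their values were seen. The comparison and the 50 gene lists were chosen with earlier results of these data known. Promoters came from RefSeq, matched by symbol.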

Additional observations from a re-analysis of the deposited data

Results flagged for a closer look

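The difference between 24-month RLX and 9-month control rats was not the same in males and females for 299 genes in the interaction test, and those given here by name are genes described above and the genes of smallest p in each direction, with their male minus female log2 difference. Above 0 were Ptgfr at 2.05, Ogt at 1.28, Dmxl1 at 1.00, Camk2d at 0.81, Efcab6 at 1.65, Slfn3 at 1.07, the longer locus of Ivns1abp at 0.83 and AABR06024251.1, an uncharacterized gene, at 2.00. Below 0 were Tmem255b at -3.28, LOC100362339, also uncharacterized, at -2.84, Acta1 at -2.25, Col1a2 at -1.65, Cyba at -1.59, RT1-A2 at -1.36, Id3 at -1.34, RT1-CE5 at -1.03, Bst2 at -0.93 and RT1-A1 at -0.90. Of these, Ptgfr passed the threshold under all 20 alternatives, while Efcab6 lost it under 14 of 20, Col1a2 under 13, Slfn3 under 11, RT1-A1 and Camk2d under 10, the longer locus of Ivns1abp under 9, Id3, Acta1 and Bst2 under 8, RT1-A2 under 7, Dmxl1 under 5, RT1-CE5 under 4, Cyba under 3, AABR06024251.1 and LOC100362339 under 2, and Ogt under 1. Tmem255b lost it under 1 of 19.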

How the results depend on the processing

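No DEG was called by the quasi-likelihood test, and other tools called DEGs: DESeq2 115 higher and 202 lower, the exact test 87 and 198, voom 51 and 120. Without the count filter it called 30 and 32, with all 9 male libraries in the fit 4 and 0, and with the length trend removed 1 and 0. DESeq2 with the length trend removed, an alternative chosen after seeing the data, called 52 and 63. RLE factors, other RPKM limits and FDR alone left both counts at 0. Leaving out each library in turn gave 0 to 8 higher and 0 to 41 lower DEGs, the most without 9-month rat 3. Rats that share a number between the groups are different animals of different age. Deviations from the group means correlated at 0.0016 for rats numbered 2 and 0.439 for rats numbered 3. For rats of differing numbers they correlated at -0.468 to 0.311. Deviations within so small a group depend on each other, so these values cannot decide whether numbers go together. The replicate block, by rat number, compares only the rats numbered 2 and 3, since no other number occurs in both groups. It treats different animals as pairs, so its 163 higher and 489 lower DEGs carry no weight here. The 70 male genes tried kept their sign under every alternative apart from Rxfp1, which ran from -0.17 to 0.91 when single libraries were left out.

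The 299 genes of the sex difference became 979 with DESeq2, 564 with voom, 612 with all 21 libraries in the fit and 34 with the length trend removed, also chosen after seeing the data. Leaving out each library in turn gave 1 to 588 genes. The exact test could not be fitted for an interaction and was not run. Depth limits genes at a few CPM, such as Rxfp1, Tmem255b and Ccl12.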
